A study of Homo sapiens with 12 samples.

Results

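The 47 genes described here encode proteins that repair DNA or stop the cell cycle when DNA is damaged, and they were taken from a named list sorted by repair pathway, with older array symbols brought up to date through the gene identifier. Of the 47 genes, 43 had a probe assigned to them among the 16922 genes with a probe, and 37 were bright enough to be tested among 8783 genes tested. RNA was measured on 12 Illumina HumanRef-8 v2 bead arrays, on which labeled RNA copies bind a probe for a transcript and are read as fluorescence. The cells were LNCaP-S14, a prostate adenocarcinoma line made from LNCaP to overexpress SKP2, so that all groups share this change, and the line and, except for SMIP004, the 24 h of treatment are known from the study and not from the labels, which say LNCaP. The samples are called biological replicates in the design for SMIP004 and only replicates in the labels of the other groups, with no word on separate cultures, so that p-values measure the spread between these samples, which may be technical. Cells received 40 µM SMIP004, a small molecule toxic to prostate cancer cells, 50 nM bortezomib (BTZ), a proteasome inhibitor, 500 nM camptothecin (CPT), which traps topoisomerase I on DNA, or 20 µM roscovitine (RVT), an inhibitor of cyclin-dependent kinases, and the controls received the solvent DMSO. Each of the 5 groups had 2 samples, and each SMIP004 sample lay on 2 arrays as technical replicates, which were averaged.

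Cells mend double-strand breaks either by homologous recombination, which copies the sister chromatid through BRCA1, PALB2 and their partners, or by end joining, in which the Ku proteins and DNA-PK rejoin the ends. The Fanconi anemia proteins open crosslinks between strands, the ATM and ATR kinases halt the cycle through CHEK2 and CHEK1, and mismatch, base excision and nucleotide excision repair replace wrong or damaged bases. Many of these genes are transcribed most in cells that copy their DNA, through the E2F transcription factors. In RNA from whole cultures, fewer cells of a kind and less RNA per cell cannot be told apart.

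DMSO and SMIP004 lay on slide 1 and BTZ, CPT and RVT on slide 2, so for these 3 compounds slide and compound cannot be told apart in a comparison with DMSO. The RVT samples stood apart from each other, with 1215 of 8783 genes at least 2-fold apart between them, against 1 to 10 genes in the other groups. Mean intensity per array ran from 473 to 802. Of 9 prostate epithelial markers 7 had a probe, and FOLH1, HOXB13 and KRT8 were detected on all 12 arrays. Of 4 leukocyte markers PTPRC and CD3E were detected on no array, CD68 on all 12 and CD14 on some. Of 3 endothelial markers PECAM1 and CDH5 were detected on no array and VWF on all 12. Of 5 fibroblast markers COL1A2, COL3A1, LUM and DCN were detected on no array and COL1A1 on some.

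The promoters of 3 members that fell with SMIP004 and of RAD50, which rose, are shown because an E2F word lies close to the start site in the first 3. Chosen in this way, these promoters do not show whether the words go with a fall. They are the RefSeq sequences of GRCh38.p14 from 250 bases before to 50 bases after a start site, with E2F words in capitals, at chr2:47782895-47783194 on the plus strand (MSH6), chr3:133661892-133662191 on the minus strand (TOPBP1), chr12:109097922-109098221 on the plus strand (UNG) and chr5:132556727-132557026 on the plus strand (RAD50).
MSH6: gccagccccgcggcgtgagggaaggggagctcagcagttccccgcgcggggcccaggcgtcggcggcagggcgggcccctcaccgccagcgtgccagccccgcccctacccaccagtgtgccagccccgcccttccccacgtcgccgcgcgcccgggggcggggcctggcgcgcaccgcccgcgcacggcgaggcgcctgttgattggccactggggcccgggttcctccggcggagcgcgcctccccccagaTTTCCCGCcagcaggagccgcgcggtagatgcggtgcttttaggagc
TOPBP1: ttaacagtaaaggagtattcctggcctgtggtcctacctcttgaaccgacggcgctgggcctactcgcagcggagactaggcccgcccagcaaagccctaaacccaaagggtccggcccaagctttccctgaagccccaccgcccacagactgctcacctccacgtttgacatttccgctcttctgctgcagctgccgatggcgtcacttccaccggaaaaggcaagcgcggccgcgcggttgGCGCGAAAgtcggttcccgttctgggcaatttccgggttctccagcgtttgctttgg
UNG: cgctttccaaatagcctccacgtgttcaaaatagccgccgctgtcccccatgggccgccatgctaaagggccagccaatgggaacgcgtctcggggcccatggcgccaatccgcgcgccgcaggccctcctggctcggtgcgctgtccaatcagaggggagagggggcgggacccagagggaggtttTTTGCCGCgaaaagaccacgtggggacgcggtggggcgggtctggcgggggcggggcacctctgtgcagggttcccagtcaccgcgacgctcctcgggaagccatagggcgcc
RAD50: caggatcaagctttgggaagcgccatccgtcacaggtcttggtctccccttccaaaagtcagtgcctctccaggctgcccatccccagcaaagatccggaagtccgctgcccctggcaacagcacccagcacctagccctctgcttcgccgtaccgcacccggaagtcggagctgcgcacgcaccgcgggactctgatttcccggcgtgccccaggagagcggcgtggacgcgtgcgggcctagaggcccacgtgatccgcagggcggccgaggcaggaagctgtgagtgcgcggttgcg
The words searched on both strands were TTTCCCGC, TTTCGCGC, TTTGCCGC and TTTGGCGC. MSH6 carried TTTCCCGC 3 bases after the start, TOPBP1 carried TTTCGCGC on the opposite strand 7 bases before it, and UNG carried TTTGCCGC 63 bases before it. RAD50 carried none of these words in this window. The other listed promoters of MSH6 and UNG, at other start sites, carried none either, and the MSH6 and UNG promoters shown were picked for the match. At least 1 promoter with such a word was found for 11 of the 42 members listed with a promoter (26.2%), against 1090 of 27305 genes in the whole promoter table (3.99%). Among members that fell with SMIP004 the share was 4 of 13 (TOPBP1, MSH6, PMS2 and UNG), and among members tested that did not fall it was 3 of 19 (XRCC2, EXO1 and XRCC6). Among members not tested it was 4 of 10. The words of EXO1, XRCC2 and XRCC6 lay 4, 21 and 42 bases after a start site, nearer than that of UNG. BRCA1, BARD1, XRCC3, BLM and PARP1 fell and carried no such word. FANCI, XRCC5 and PRKDC, which also fell, had no listed promoter. The shorter word TTTGAA, which can mark genes of late cell cycle phases, was found in 11.9% of member promoters and 15.2% of all promoters. Matches were counted word by word, so an overlap between an E2F word and TTTGAA would count for both. A match describes letters and is not a measured binding site.

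With SMIP004, 16 of the 37 tested members fell and 4 rose (limma, adjusted p under 0.05), where 29.9% of all tested genes fell and 28.7% rose. With BTZ 23 members fell and 5 rose, where 32.8% of all genes fell and 31.7% rose. With CPT 23 members fell and 3 rose, where 31.7% of all genes fell and 31.7% rose. With RVT 1 member fell and 1 rose, where 4.19% of all genes fell and 3.48% rose. The even split over all genes depends on quantile normalization. With arrays scaled to 1 median, 39.1% of all genes fell and 22.9% rose with BTZ (25 members fell and 4 rose), 41.0% fell and 20.7% rose with CPT (25 and 1), and 2.72% fell and 1.22% rose with RVT (1 and 1). After quantile normalization, as in all that follows unless said, the median log2 change of the members was -0.56 with SMIP004, -1.34 with BTZ, -1.10 with CPT and -0.42 with RVT, while the medians over all genes lay between -0.02 and 0.02. In the fit of all 10 samples, falls were thus a larger share of the members than of all genes with SMIP004, BTZ and CPT. They were 43.2%, 62.2% and 62.2% of the tested members, and no test of the list was made. With SMIP004 the share of the members was below that of all genes without DMSO sample 1 or without SMIP004 sample 1. The 4 comparisons share the DMSO samples. Of these calls, 2 falls with BTZ (FANCF and ERCC2) and 2 with CPT (FANCF and ATM) were made between groups in which the probe was not detected on any array. A group of 11 members fell with SMIP004, BTZ and CPT alike, namely BRCA1, BARD1, BLM, FANCI, TOPBP1, MSH6, PMS2, UNG, PARP1, XRCC5 and PRKDC, and 0 rose with all 3. These are 29.7% of the tested members, where 11.7% of all tested genes fell with all 3 and 8.72% rose with all 3, and the 3 comparisons share the DMSO samples. PMS2 did not fall with any of the 3 on its other probe. A gene entered the test if all arrays of some group detected it, so a member detected with DMSO alone, as BRCA1 was, could pass only by being brighter there. All arrays of both groups detected 13 of the 16 members that fell with SMIP004, 13 of the 23 with BTZ and 16 of the 23 with CPT, and of the rises 2 of 4 with SMIP004 (FANCF and ATM), 2 of 5 with BTZ (ATM and TOP1), 1 of 3 with CPT and the 1 with RVT (ERCC2 both times) had DMSO arrays that did not detect the gene.

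**Figure D1:**
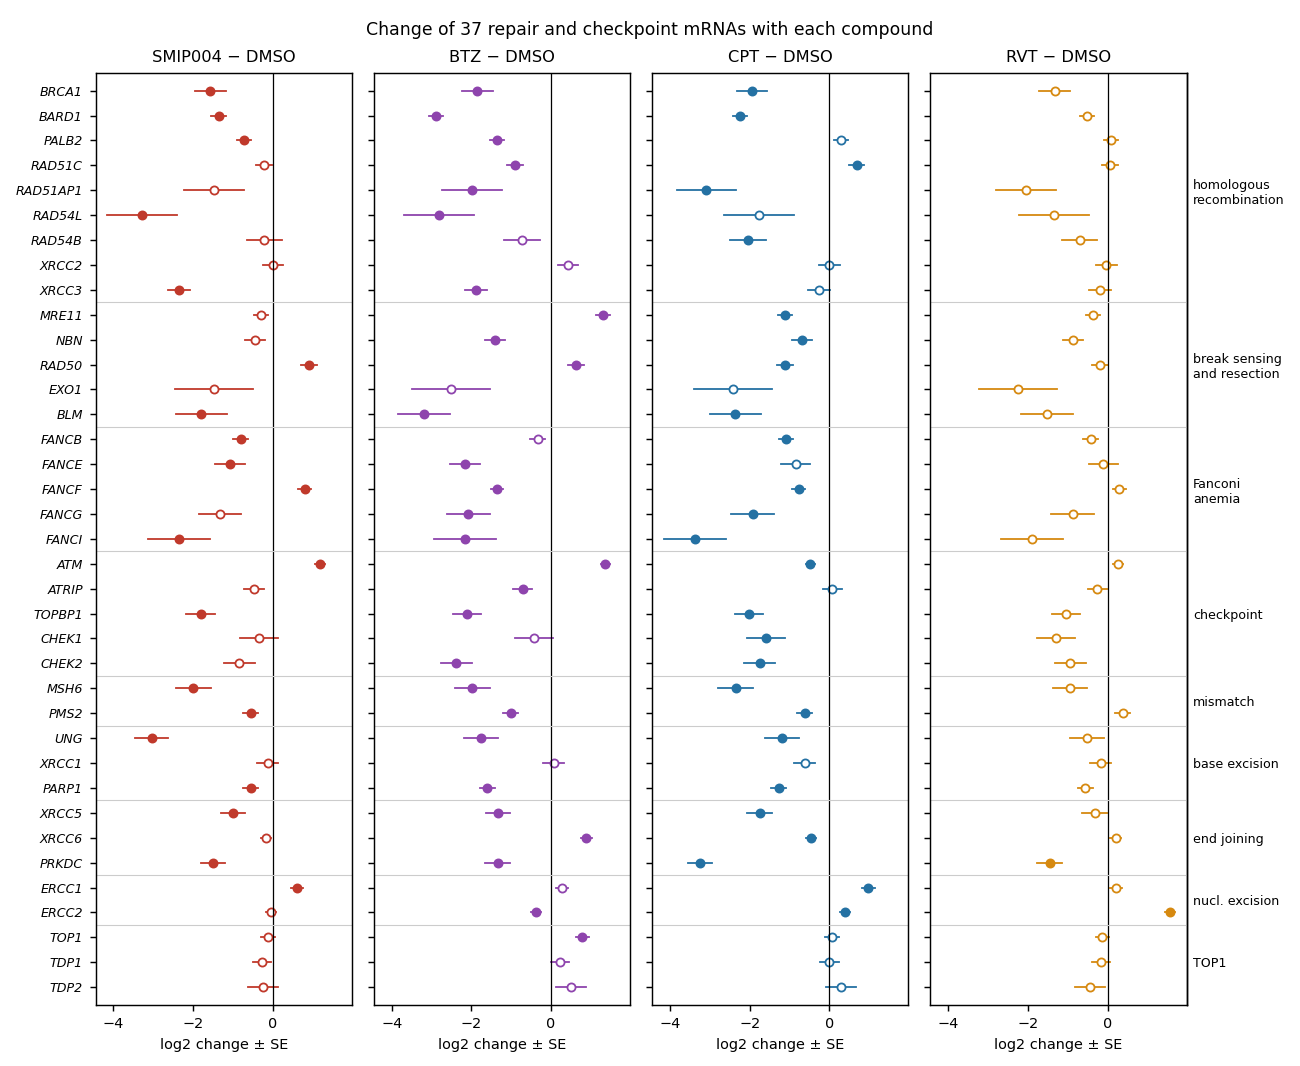
Log2 change against DMSO (x axis) of the 37 tested members (y axis, ordered by pathway) with SMIP004, BTZ, CPT and RVT, as points with the standard error of limma as bars (n = 2 samples per group). Filled points passed an adjusted p of 0.05; most filled points lie left of 0 with SMIP004, BTZ and CPT, and RVT has 2 filled points.

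Levels are normalized log2 intensities of 1 probe, which can be set against other samples on that probe but not against other genes, and errors of log2 changes are standard errors from limma with 2 samples per group. A probe counted as detected on an array at a detection p under 0.01. Where no array of a group detected a gene, its fold is a lower bound ("at least"), computed with the lowest signal detected on each of those arrays in place of its own. The adjusted p beside such a bound belongs to the log2 change fitted to the levels as read, and does not test the bound.

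Among the recombination genes, 5 of 9 tested members fell with SMIP004, 7 with BTZ and 4 with CPT, and RAD51C alone rose, with CPT. XRCC3, which forms a complex with RAD51C at breaks, read 6.43 and 6.41 with SMIP004, 6.75 and 7.05 with BTZ, 8.64 and 8.41 with CPT, 9.06 and 8.11 with RVT and 8.76 and 8.81 with DMSO. The SMIP004 and BTZ samples thus lay well below all others and did not overlap them. XRCC3 was detected on only 2 of 4 SMIP004 arrays and 1 of 2 BTZ arrays, so it was read near the detection limit there. Its log2 change was -2.36 ± 0.276 with SMIP004 (adjusted p 0.00022), -1.88 ± 0.276 with BTZ (0.000567) and -0.26 ± 0.276 with CPT (0.44, limma). RAD54L, a motor protein of recombination, read 5.62 and 5.59 with SMIP004, 6.41 and 5.72 with BTZ, 7.12 and 7.13 with CPT, 9.24 and 5.82 with RVT and 8.88 and 8.89 with DMSO. It was detected on no SMIP004 or BTZ array, and was at least 5.53-fold lower with SMIP004 (adjusted p 0.0129) and at least 4.15-fold lower with BTZ (0.0218, limma). The RAD54L call with SMIP004 was lost when any of the DMSO or SMIP004 samples was left out (adjusted p up to 0.0585), and that with BTZ when any DMSO or BTZ sample was left out (up to 0.113). BRCA1, the tumor suppressor that commits breaks to recombination, read 5.10 and 5.44 with SMIP004, 4.98 and 4.98 with BTZ, 4.84 and 4.95 with CPT, 6.21 and 4.79 with RVT and 6.96 and 6.70 with DMSO. Only the DMSO arrays detected it, so it was tested through the group where it is highest. It was at least 1.33-fold lower with SMIP004 (adjusted p 0.00878, and 0.059 without DMSO sample 1 or SMIP004 sample 1) and at least 1.44-fold lower with CPT (0.00303), and with BTZ the lower bound was 1.00-fold (0.00343, limma).

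BARD1, the partner that BRCA1 needs for its ubiquitin ligase activity, stayed detected on all arrays. It read 8.77 and 8.74 with SMIP004, 7.13 and 7.32 with BTZ, 7.70 and 8.05 with CPT, 9.79 and 9.41 with RVT and 10.002 and 10.23 with DMSO. SMIP004, CPT and BTZ followed each other downward without overlap, with log2 changes of -1.36 ± 0.181 (adjusted p 0.00042), -2.24 ± 0.181 (3.98e-05) and -2.89 ± 0.181 (1.22e-05, limma). RAD51AP1, which acts in recombination, read 8.98 and 9.03 with SMIP004, 8.59 and 8.405 with BTZ, 7.27 and 7.52 with CPT, 9.91 and 6.97 with RVT and 10.62 and 10.34 with DMSO. Its fall of -3.09 ± 0.751 with CPT passed (adjusted p 0.00784), that of -1.98 with BTZ passed narrowly (0.0467, and up to 0.161 when any sample but those of RVT was left out), and its change of -1.47 with SMIP004 did not (0.124, limma). PALB2, which links BRCA1 to BRCA2, changed by -0.71 ± 0.174 with SMIP004 (adjusted p 0.00837, up to 0.0634 without DMSO sample 1 or SMIP004 sample 1) and by 0.30 with CPT (0.161, limma), and was at least 1.98-fold lower with BTZ. RAD54B, a relative of RAD54L, was at least 3.78-fold lower with CPT (adjusted p 0.00473, limma), at log2 changes of -0.21 with SMIP004 and -0.73 with BTZ that did not pass. XRCC2, also of this pathway, had log2 changes between -0.03 and 0.42, none of which passed. BRCA2 was not analysed here.

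**Figure D2:**
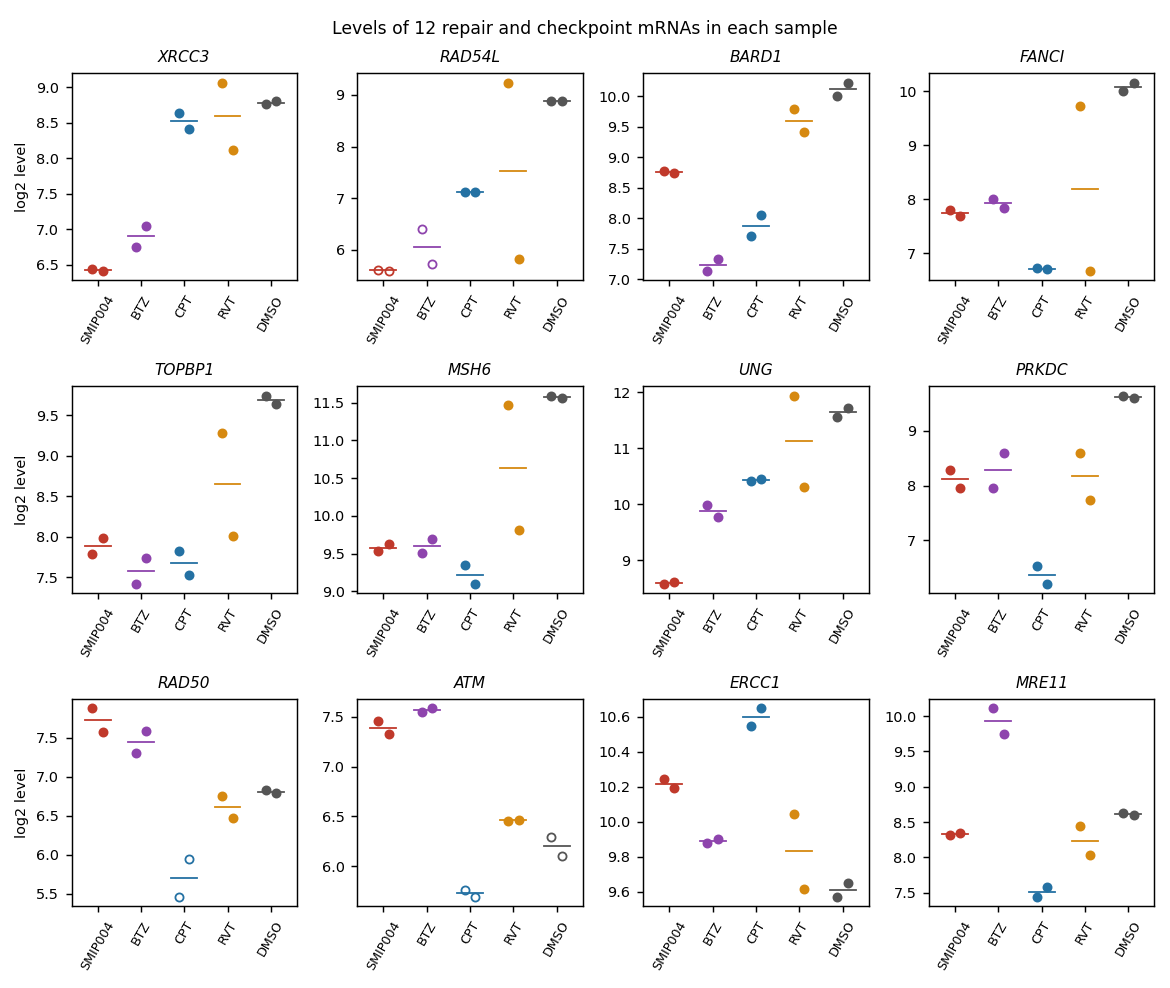
Log2 level (y axis) of 12 members in each of 2 samples per group (points) with the group mean (line), for SMIP004, BTZ, CPT, RVT and DMSO on the x axis, with a y axis of its own for each gene that does not start at 0. Open points mark groups with no array that detected the probe; UNG and XRCC3 are lowest with SMIP004, PRKDC and FANCI are lower with CPT than with SMIP004 or BTZ, and MRE11 is highest with BTZ.

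The complex of MRE11, RAD50 and NBN binds broken ends and starts their trimming. Its 3 genes all fell with CPT, and with BTZ RAD50 and MRE11 rose while NBN fell. RAD50 rose with SMIP004, with 7.88 and 7.58, and with BTZ, with 7.31 and 7.58, and fell with CPT, with 5.46 and 5.94, while RVT samples read 6.76 and 6.48 and DMSO samples 6.83 and 6.79. The log2 change was 0.92 ± 0.201 with SMIP004 (adjusted p 0.00498) and 0.64 ± 0.201 with BTZ (0.0229, limma), and no CPT array detected it, at least 1.42-fold lower (0.00195). The call with BTZ was lost without DMSO sample 1, DMSO sample 2 or BTZ sample 2 (adjusted p up to 0.136). MRE11, the nuclease of the complex, read 8.31 and 8.35 with SMIP004, 10.11 and 9.74 with BTZ, 7.44 and 7.58 with CPT, 8.44 and 8.03 with RVT and 8.63 and 8.59 with DMSO. It rose by 1.31 ± 0.176 with BTZ (adjusted p 0.000362), changed by -1.10 ± 0.176 with CPT (0.00107) and by -0.28 with SMIP004 (0.198, limma). A dimmer probe of MRE11 moved the same way by less, 0.30 with BTZ (adjusted p 0.33) and -0.34 with CPT (0.275, limma). NBN, the part that recruits ATM, was at least 1.23-fold lower with BTZ (adjusted p 0.00147), changed by -0.69 ± 0.25 with CPT (0.041, up to 0.148 when any sample but those of RVT was left out) and by -0.45 with SMIP004 (0.154, limma).

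BLM, the helicase lost in Bloom syndrome, read 6.80 and 6.88 with SMIP004, 5.64 and 5.26 with BTZ, 6.40 and 6.15 with CPT, 8.37 and 5.87 with RVT and 8.54 and 8.73 with DMSO. Its log2 change was -1.79 ± 0.65 with SMIP004 (adjusted p 0.0436) and -2.36 ± 0.65 with CPT (0.0135), and it was at least 3.49-fold lower with BTZ (0.00307, limma). The SMIP004 call was lost when any sample but those of RVT was left out (adjusted p up to 0.151), and the CPT call without DMSO sample 1, DMSO sample 2 or CPT sample 2 (up to 0.0698). EXO1, the exonuclease that trims ends, read 9.07 and 8.93 with SMIP004, 7.94 and 8.001 with BTZ, 7.99 and 8.15 with CPT, 10.18 and 6.29 with RVT and 10.52 and 10.46 with DMSO. The RVT samples differed by 3.89 in log2 level, more than in any other member, and the changes of -1.48, -2.52 and -2.42 with SMIP004, BTZ and CPT did not pass (adjusted p 0.225, 0.0519 and 0.0603). The other tested EXO1 probe, which no BTZ or CPT array detected, was at least 2.01-fold lower with BTZ and at least 2.89-fold lower with CPT (adjusted p 0.0263 and 0.0277) and did not pass with SMIP004 (0.168, limma). On the first probe, in a fit without the RVT samples, all 3 passed (1.52e-07, 2.07e-09 and 1.88e-09, limma). RBBP8 was not analysed here.

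Of the Fanconi anemia genes 5 were tested, and 3 fell and 1 rose with SMIP004, while 4 fell with BTZ and 4 with CPT. FANCI, which is clamped on crosslinked DNA together with FANCD2, read 7.80 and 7.68 with SMIP004, 8.01 and 7.83 with BTZ, 6.72 and 6.71 with CPT, 9.72 and 6.67 with RVT and 10.01 and 10.16 with DMSO. Its log2 changes were -2.35 ± 0.776 with SMIP004 (adjusted p 0.0309), -2.17 ± 0.776 with BTZ (0.0379) and -3.38 ± 0.776 with CPT (0.00604, limma). The calls with SMIP004 and BTZ were lost when any sample but those of RVT was left out (adjusted p up to 0.115 and 0.134). FANCE, a core complex subunit, read 6.74 and 6.77 with SMIP004, 6.20 and 5.15 with BTZ, 7.15 and 6.83 with CPT, 8.15 and 7.29 with RVT and 7.71 and 7.95 with DMSO. It changed by -1.07 ± 0.369 with SMIP004 (adjusted p 0.0357, up to 0.151 without any DMSO, SMIP004 or CPT sample) and was at least 2.00-fold lower with BTZ (0.00125, limma). FANCB, also of the core complex, read 6.96 and 7.07 with SMIP004, 7.40 and 7.57 with BTZ, 6.81 and 6.64 with CPT, 7.67 and 7.12 with RVT and 7.86 and 7.78 with DMSO, so that the SMIP004 and CPT samples were the lowest. It changed by -0.81 ± 0.184 with SMIP004 (adjusted p 0.00625) and -1.09 ± 0.184 with CPT (0.00139, limma).

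FANCF, the adaptor of the core complex, went the other way with SMIP004. It read 7.25 and 7.05 with SMIP004, 5.01 and 4.98 with BTZ, 5.57 and 5.59 with CPT, 6.46 and 6.84 with RVT and 6.24 and 6.47 with DMSO. Only SMIP004 and RVT arrays detected it, and it was at least 1.61-fold higher with SMIP004 than with DMSO (adjusted p 0.00322, limma). Against DMSO its fitted falls with BTZ and CPT lie between levels that are all below detection, and no fold is given. FANCG, of the core complex too, changed by -2.08 ± 0.534 with BTZ (adjusted p 0.00933, and 0.05003 without DMSO sample 2) and -1.92 ± 0.534 with CPT (0.0139, up to 0.0821 without DMSO sample 1, DMSO sample 2 or CPT sample 2), and by -1.33 with SMIP004 (0.0622, limma). FANCC was detected on 1 RVT array and 1 DMSO array, FANCL and BRIP1 on no array, and FANCA and FANCD2 were not analysed here.

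In the damage checkpoint, the apical kinase gene ATM rose with SMIP004 and BTZ. It read 7.45 and 7.33 with SMIP004, 7.55 and 7.58 with BTZ, 5.76 and 5.69 with CPT, 6.46 and 6.46 with RVT and 6.30 and 6.11 with DMSO. No DMSO or CPT array detected it, and it was tested through the SMIP004 and BTZ arrays, where it is highest. It was at least 1.90-fold higher with SMIP004 (adjusted p 0.000102) and at least 2.15-fold higher with BTZ (4.34e-05, limma). TOPBP1, the activator of ATR, read 7.78 and 7.98 with SMIP004, 7.42 and 7.74 with BTZ, 7.82 and 7.53 with CPT, 9.28 and 8.01 with RVT and 9.74 and 9.64 with DMSO. SMIP004 and CPT overlapped, as did CPT and BTZ, and all 3 lay below DMSO, with log2 changes of -1.81 ± 0.355 with SMIP004 (adjusted p 0.00295), -2.11 ± 0.355 with BTZ (0.00114) and -2.02 ± 0.355 with CPT (0.00171, limma). CHEK1, the kinase that acts below ATR, changed by -1.60 ± 0.474 with CPT (adjusted p 0.0187, up to 0.0875 without any DMSO or CPT sample), by -0.34 with SMIP004 (0.564) and by -0.43 with BTZ (0.457, limma). CHEK2, the kinase that acts below ATM, changed by -2.38 ± 0.392 with BTZ (adjusted p 0.00104), -1.75 ± 0.392 with CPT (0.00537) and -0.84 with SMIP004 (0.0982, limma). ATRIP, the partner of ATR, changed by -0.71 ± 0.242 with BTZ (adjusted p 0.0311, up to 0.132 without any DMSO, CPT or BTZ sample, limma) and did not pass with SMIP004 or CPT, and its other tested probe did not pass with BTZ (-0.50, 0.137). ATR, on 3 probes, and CLSPN were detected on no array and were not tested.

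Both mismatch repair members fell with SMIP004, BTZ and CPT on the probe of highest mean, MSH6 on its only tested probe and PMS2 on 1 of its 2. MSH6, which helps recognize mispaired bases, read 9.54 and 9.62 with SMIP004, 9.51 and 9.69 with BTZ, 9.35 and 9.10 with CPT, 11.46 and 9.81 with RVT and 11.60 and 11.56 with DMSO. The samples of SMIP004, BTZ and CPT lay below both DMSO samples. The log2 changes were -1.998 ± 0.435 with SMIP004 (adjusted p 0.00496), -1.98 ± 0.435 with BTZ (0.00443) and -2.35 ± 0.435 with CPT (0.00214, limma). PMS2, an endonuclease of this pathway, read 7.40 and 7.34 with SMIP004, 7.08 and 6.74 with BTZ, 7.33 and 7.29 with CPT, 8.06 and 8.54 with RVT and 8.06 and 7.79 with DMSO. Its log2 changes were -0.56 ± 0.192 with SMIP004 (adjusted p 0.0362), -1.01 ± 0.192 with BTZ (0.00212) and -0.62 ± 0.192 with CPT (0.0225, limma). The SMIP004 call was lost without any DMSO, SMIP004 or CPT sample (adjusted p up to 0.192) and the CPT call without DMSO sample 1 or either CPT sample (up to 0.134). The second PMS2 probe did not pass with SMIP004 (-0.06, adjusted p 0.754) or BTZ (-0.10, 0.593, limma) and rose with CPT.

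UNG, which cuts uracil out of DNA, had the largest fall among members detected in all groups with SMIP004. It read 8.58 and 8.61 with SMIP004, 9.98 and 9.78 with BTZ, 10.42 and 10.46 with CPT, 11.94 and 10.31 with RVT and 11.56 and 11.71 with DMSO. SMIP004, BTZ and CPT did not overlap each other or DMSO, with log2 changes of -3.04 ± 0.425 (adjusted p 0.000533), -1.76 ± 0.425 (0.00698) and -1.20 ± 0.425 (0.0373, limma). The CPT call was lost when any sample but those of RVT was left out (adjusted p up to 0.137). PARP1, which senses strand breaks and is the target of PARP inhibitors, read 13.18 and 13.17 with SMIP004, 12.04 and 12.22 with BTZ, 12.43 and 12.47 with CPT, 13.48 and 12.86 with RVT and 13.72 and 13.73 with DMSO. It changed by -0.55 ± 0.193 with SMIP004 (adjusted p 0.0379, up to 0.13 when any sample but those of RVT was left out), by -1.60 ± 0.193 with BTZ (0.000208) and by -1.27 ± 0.193 with CPT (0.000813, limma). XRCC1, a scaffold of single-strand break repair, did not pass with any compound, at log2 changes of -0.13 with SMIP004, 0.06 with BTZ, -0.62 with CPT and -0.18 with RVT.

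All 3 end joining genes fell with CPT, while with BTZ the larger Ku subunit fell and the smaller rose. PRKDC, the catalytic subunit of DNA-PK, read 8.28 and 7.96 with SMIP004, 7.96 and 8.60 with BTZ, 6.53 and 6.21 with CPT, 8.60 and 7.73 with RVT and 9.64 and 9.60 with DMSO. It changed by -1.50 ± 0.311 with SMIP004 (adjusted p 0.0039), -1.34 ± 0.311 with BTZ (0.00568), -3.25 ± 0.311 with CPT (9.24e-05) and -1.45 ± 0.311 with RVT (0.0373, limma), the single member to fall with RVT, and that call was lost when any sample but those of RVT was left out (up to 0.199). XRCC5, the larger Ku subunit, read 8.73 and 8.77 with SMIP004, 8.43 and 8.39 with BTZ, 8.11 and 7.89 with CPT, 9.98 and 8.86 with RVT and 9.81 and 9.69 with DMSO. Its log2 changes were -1.00003 ± 0.307 with SMIP004 (adjusted p 0.0229, up to 0.101 without any DMSO or SMIP004 sample), -1.34 ± 0.307 with BTZ (0.00545) and -1.75 ± 0.307 with CPT (0.00167, limma). XRCC6, the smaller Ku subunit, read 12.05 and 12.03 with SMIP004, 13.08 and 13.11 with BTZ, 11.76 and 11.73 with CPT, 12.56 and 12.26 with RVT and 12.29 and 12.12 with DMSO. It rose by 0.89 ± 0.135 with BTZ (adjusted p 0.000683), fell by 0.46 ± 0.135 with CPT (0.0176, up to 0.109 without DMSO sample 1 or either CPT sample) and changed by -0.17 with SMIP004 (0.316, limma).

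In nucleotide excision repair, ERCC1, which cuts beside the lesion together with XPF, read 10.24 and 10.19 with SMIP004, 9.88 and 9.90 with BTZ, 10.54 and 10.65 with CPT, 10.05 and 9.62 with RVT and 9.57 and 9.65 with DMSO. It rose by 0.61 ± 0.153 with SMIP004 (adjusted p 0.00978, up to 0.0616 without DMSO sample 1 or SMIP004 sample 1) and by 0.98 ± 0.153 with CPT (0.000923, limma), and its second tested probe by 0.80 with CPT (0.00341) and 0.28 with SMIP004 (0.169). ERCC2, the TFIIH helicase, read 6.24 and 6.04 with SMIP004, 5.75 and 5.88 with BTZ, 6.53 and 6.62 with CPT, 7.69 and 7.83 with RVT and 6.21 and 6.16 with DMSO. Only CPT and RVT arrays detected it, and it was at least 2.45-fold higher with RVT (adjusted p 0.00383, and 0.0724 without a DMSO sample) and at least 1.08-fold higher with CPT (0.0272, up to 0.121 without any DMSO or CPT sample, limma). XPA was detected on no array.

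TOP1, the target of CPT, read 6.53 and 6.58 with SMIP004, 7.30 and 7.63 with BTZ, 6.82 and 6.67 with CPT, 6.64 and 6.44 with RVT and 6.83 and 6.52 with DMSO. It rose by 0.79 ± 0.166 with BTZ (adjusted p 0.00367), and its change with CPT was 0.07 ± 0.166 (0.736, limma). TDP1 and TDP2, which remove topoisomerases stuck on DNA, did not pass with any compound on the probe of highest mean.

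For 8 members more than 1 probe was tested, and in RAD51C, PMS2 and TDP1 the probes parted. RAD51C, a recombination gene, read 11.02 and 10.95 with SMIP004, 10.39 and 10.21 with BTZ, 11.76 and 12.01 with CPT, 11.00 and 11.54 with RVT and 11.31 and 11.09 with DMSO on its brighter probe, highest with CPT. Its other probe read 9.95 and 9.95 with SMIP004, 8.87 and 9.08 with BTZ, 8.77 and 8.96 with CPT, 9.63 and 8.85 with RVT and 9.87 and 9.85 with DMSO, with the CPT, BTZ and second RVT samples below the rest. The log2 change with CPT was 0.68 ± 0.195 on the first probe (adjusted p 0.0156, up to 0.0972 without DMSO sample 2 or CPT sample 2) and -0.997 ± 0.232 on the other (0.0063, limma), while with BTZ it was -0.90 and -0.89. PMS2 changed with CPT by -0.62 on its brighter probe and by 0.85 ± 0.147 on the other (adjusted p 0.0015, limma), on which CPT samples read 7.83 and 7.64 and DMSO samples 6.80 and 6.96. TDP1, on its other tested probe, read 5.94 and 5.84 with SMIP004, 5.88 and 5.85 with BTZ, 6.02 and 5.66 with CPT, 7.73 and 6.37 with RVT and 8.05 and 7.93 with DMSO. No SMIP004, BTZ or CPT array detected it there, and it was at least 2.97-fold, 2.23-fold and 3.21-fold lower with them than with DMSO (adjusted p 0.00171, 0.00134 and 0.0015, limma), while the probe of highest mean did not pass. Which transcripts these probes bind was not tested. The dimmest tested PRKDC probe was detected on 1 of 4 SMIP004 arrays, on no BTZ or CPT array and on both DMSO arrays, and was at least 1.94-fold lower with BTZ and at least 2.79-fold lower with CPT (adjusted p 0.000181 and 9.04e-06, limma).

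**Figure D3:**
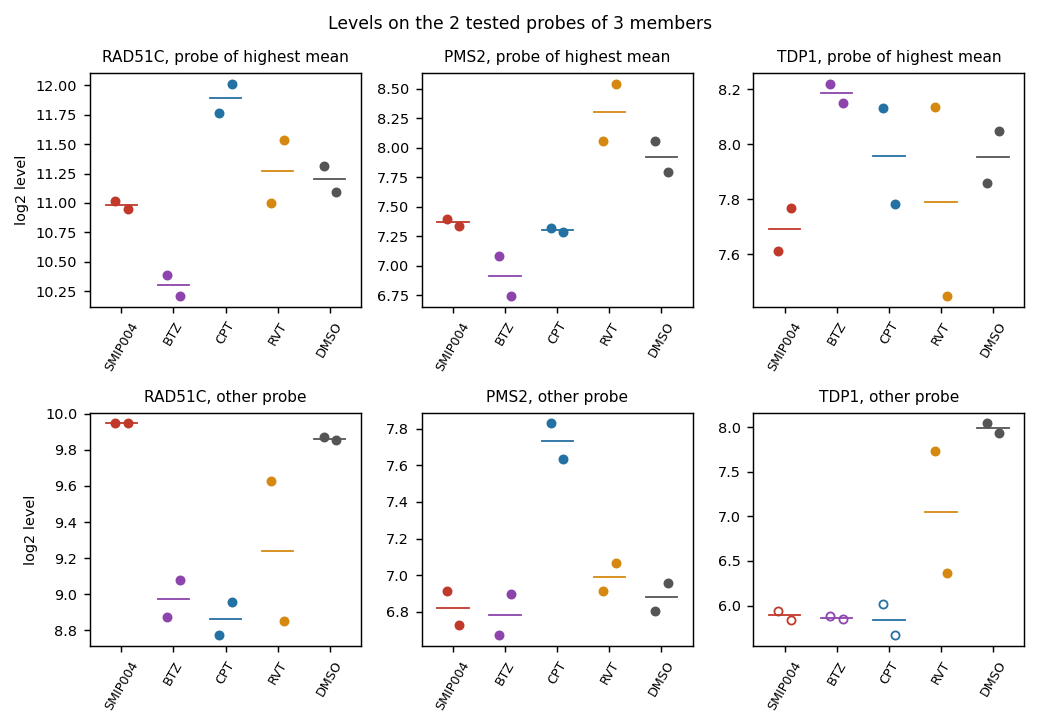
Log2 level (y axis, not starting at 0) of RAD51C, PMS2 and TDP1 in each sample (points, with the group mean as a line) on the probe of highest mean (top) and on the other tested probe (bottom), by group on the x axis. Open points mark groups with no array that detected the probe; CPT lies highest of the groups on the top RAD51C probe and on the bottom PMS2 probe, and TDP1 is undetected with SMIP004, BTZ and CPT on the bottom probe only.

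In 7 of 37 members (18.9%) the calls went in opposite directions with different compounds, RAD51C, MRE11, RAD50, FANCF, ATM, XRCC6 and ERCC2, near the 17.7% of all tested genes, and in FANCF, ATM and ERCC2 the fall lay between undetected levels. Direct comparisons of compounds do not use the DMSO samples in the difference, and CPT and BTZ lay on the same slide. Between CPT and BTZ 10 members were higher and 8 lower with CPT, where 32.7% of all tested genes were higher and 32.8% lower. MRE11 differed by -2.42 ± 0.176 (adjusted p 1.17e-05), XRCC6 by -1.35 ± 0.135 (5.88e-05) and PRKDC by -1.91 ± 0.311 (0.000828, limma), all lower with CPT. ATM and RAD50, undetected with CPT, were at least 2.40-fold and at least 2.20-fold lower with CPT than with BTZ (adjusted p 6.9e-06 and 0.000124, limma). In the other direction, XRCC3 was higher with CPT than with BTZ by 1.63 ± 0.276 (adjusted p 0.00104), and PALB2, undetected with BTZ, was at least 2.44-fold higher (7.76e-05, limma). RAD51C was higher by 1.59 ± 0.195 on its brighter probe (adjusted p 0.000176) and differed by -0.11 on the other (0.692, limma). FANCE, undetected with BTZ, was at least 1.12-fold higher with CPT (adjusted p 0.0135, limma). NBN was called higher with CPT and was detected on no BTZ array. Its CPT levels lay below the lowest signal detected on the BTZ arrays, so no fold is given. The higher call of FANCF with CPT lay between undetected levels. Of these 18 calls 12 held when each of the 10 samples in turn was left out, and those of BARD1, RAD54B, NBN, FANCE, FANCF and ATRIP were lost without at least 1 CPT or BTZ sample, NBN also without a DMSO sample.

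Between SMIP004 and CPT, which lay on different slides, 9 members were higher and 5 lower with SMIP004, where 32.1% of all tested genes were higher and 33.7% lower. With arrays scaled to 1 median 12 members were higher and 4 lower, where 38.6% of all genes were higher and 23.2% lower. PRKDC was higher with SMIP004 by 1.75 ± 0.311 (adjusted p 0.0014), BARD1 by 0.88 ± 0.181 (0.00307) and MRE11 by 0.82 ± 0.176 (0.0038, limma). RAD50, ATM and RAD54B, undetected with CPT, were at least 2.68-fold, 2.12-fold and 3.27-fold higher with SMIP004 (adjusted p 5.64e-05, 1.04e-05 and 0.00698, limma). XRCC3 differed by -2.10 ± 0.276 (adjusted p 0.00027), UNG by -1.85 ± 0.425 (0.00536) and PALB2 by -1.02 ± 0.174 (0.00116, limma), all lower with SMIP004. Of the 14 calls 11 held when each sample was left out, and those of CHEK1, PARP1 and ERCC2 did not (adjusted p up to 0.164, 0.0548 and 0.128). The RAD51C difference was -0.90 on the brighter probe and 1.08 on the other.

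Between SMIP004 and BTZ, also on different slides, 8 members were higher and 4 lower with SMIP004, where 24.6% of all tested genes were higher and 24.5% lower. With arrays scaled to 1 median 12 members were higher and 3 lower, where 30.3% of all genes were higher and 14.3% lower. BARD1 was higher with SMIP004 by 1.53 ± 0.181 (adjusted p 0.000351), CHEK2 by 1.53 ± 0.392 (0.0128) and PARP1 by 1.05 ± 0.193 (0.00286, limma). FANCF and PALB2, undetected with BTZ, were at least 1.25-fold and at least 1.20-fold higher with SMIP004 (adjusted p 4.05e-05 and 0.017, limma). NBN and FANCE were also called higher and were detected on no BTZ array. Their SMIP004 levels lay below the lowest signal detected on the BTZ arrays, so no fold is given. MRE11 differed by -1.60 ± 0.176 (adjusted p 0.000246), XRCC6 by -1.06 ± 0.135 (0.000494), TOP1 by -0.91 ± 0.166 (0.00278) and UNG by -1.29 ± 0.425 (0.0362, limma), all lower with SMIP004. The calls of PALB2, RAD51C, NBN, FANCE, CHEK2 and UNG were lost in at least 1 case when a sample was left out, UNG when any sample but those of RVT was (up to 0.147), and 6 of 12 held in each case.

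**Figure D4:**
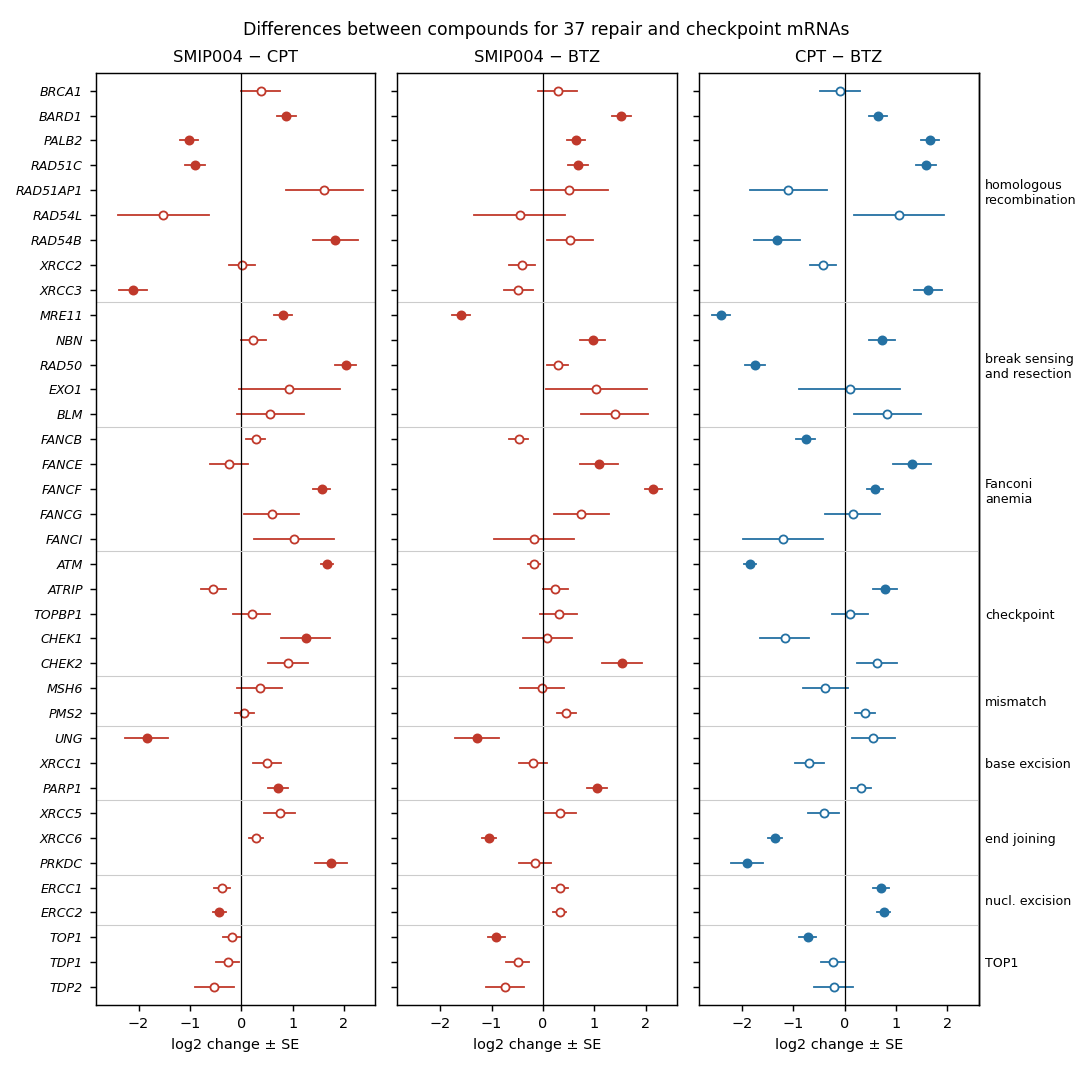
Log2 differences between compounds (x axis) for the 37 tested members (y axis, by pathway), as SMIP004 minus CPT, SMIP004 minus BTZ and CPT minus BTZ, with the standard error of limma as bars (n = 2 samples per group). Filled points passed an adjusted p of 0.05; RAD50 and ATM lie right of 0 against CPT in the first panel, and MRE11 and XRCC6 lie left of 0 in the panels that subtract BTZ.

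The RVT samples read unlike each other on many members. In 15 of 37 members they were at least 2-fold apart, against 0 members in SMIP004, CPT and DMSO and 1 member, FANCE, in BTZ. In EXO1, RAD54L, FANCI and RAD51AP1, whose values are given above, RVT sample 1 was nearer to the DMSO samples than to any other group, and RVT sample 2 lay within the range of SMIP004, BTZ and CPT (RAD54L) or below it (the other 3). The largest difference between the samples of a group was 3.89 in RVT, against 0.48 in SMIP004, 1.05 in BTZ, 0.62 in CPT and 0.47 in DMSO. Since all groups share 1 estimate of spread, this difference enters the error of each comparison. Without the RVT samples 7 more members fell with SMIP004 (RAD51AP1, NBN, EXO1, FANCG, ATRIP, CHEK1 and CHEK2), 7 more passed with BTZ (RAD54B, XRCC2, EXO1, FANCB, CHEK1, ERCC1 and TDP2) and 4 more with CPT (RAD54L, EXO1, FANCE and XRCC1), and 0 calls were lost. Over all genes the share that fell without the RVT samples was 38.7% with SMIP004, 39.3% with BTZ and 38.4% with CPT. With RVT sample 1 left out, 25 members and 27.2% of all genes fell with RVT, and with RVT sample 2 left out 5 members and 9.80% of all genes fell, in fits that assume the lone sample to vary like the other groups.

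**Figure D5:**
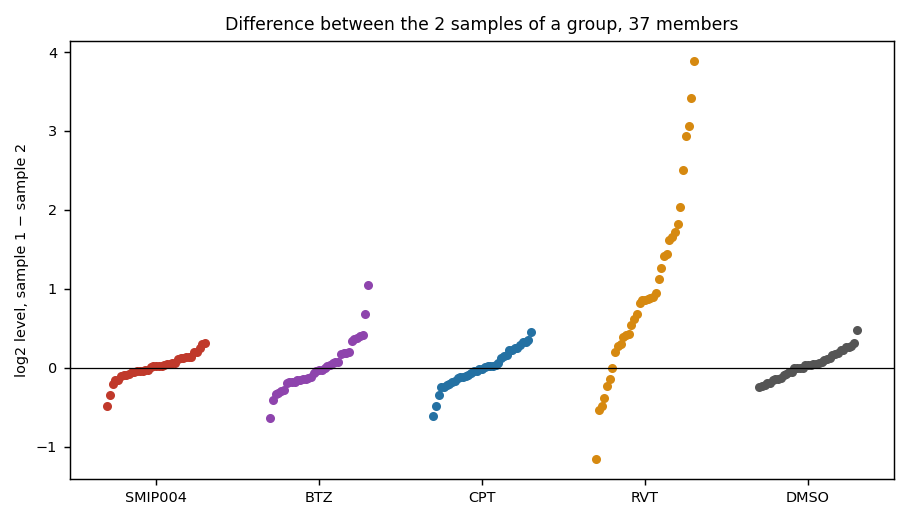
Difference in log2 level between sample 1 and sample 2 of each group (y axis) for the 37 tested members (points, sorted within each group on the x axis). RVT reaches 3.89, while differences in the other groups are at most 1.05 in size.

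Calls that held whichever of the 10 samples was left out numbered 10 of 20 with SMIP004 (BARD1, XRCC3, RAD50, FANCB, FANCF, ATM, TOPBP1, MSH6, UNG and PRKDC), 21 of 28 with BTZ, 16 of 26 with CPT and 0 of 2 with RVT. Fewer members fell with SMIP004 when a DMSO, SMIP004, CPT or BTZ sample was left out, and more when an RVT sample was. The share of all tested genes that fell moved the same way. Without DMSO sample 1 or SMIP004 sample 1 it was above the share of the members. Left-out samples turned the direction of 0 calls.

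Of the repair genes outside the members, 64 of 81 were tested. With SMIP004 16 rose and 22 fell (25% and 34.4%, where 28.7% and 29.9% of all tested genes did). With BTZ 22 rose and 26 fell (34.4% and 40.6%, against 31.7% and 32.8% of all genes). With CPT 10 rose and 28 fell (15.6% and 43.8%, against 31.7% and 31.7%), and with RVT 0 rose and 3 fell (0% and 4.69%, against 3.48% and 4.19%). The median log2 change was -0.29 with SMIP004, -0.13 with BTZ and -0.20 with CPT, nearer to 0 than that of the members. The largest changes with SMIP004 were those of H2AX, the histone marked at breaks (-2.68 ± 0.552, adjusted p 0.00378), TOP2A, the topoisomerase of dividing cells (-2.16 ± 0.682, 0.0259), and RMI2, a partner of BLM (-2.15 ± 0.306, 0.000582, limma). With CPT they were those of TOP2A (-3.53 ± 0.682, adjusted p 0.00267), UBE2T, the ubiquitin-conjugating enzyme of the Fanconi anemia pathway (-2.68 ± 0.595, 0.00509), and CDC25A, a phosphatase that CHEK1 opposes (-2.66 ± 0.72, 0.0126, limma).

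Genes of S phase and proliferation fell beside the repair genes. Of 18 tested markers 16 fell with SMIP004, 15 with BTZ, 15 with CPT and 2 with RVT, and 0 rose, at median log2 changes of -2.35, -2.14, -2.08 and -1.17. Of all tested genes 29.9%, 32.8%, 31.7% and 4.19% fell with these compounds. Their summed linear level was 14434 to 14746 in SMIP004 samples, 13512 to 14439 with BTZ, 28096 to 28586 with CPT, 18293 and 60194 in the RVT samples, and 65581 to 66641 with DMSO. RVT sample 1 was the one with 60194. The summed level of the 37 tested repair members was 25358 to 25762 with SMIP004, 23825 to 24319 with BTZ, 21529 to 22208 with CPT, 24285 to 41743 with RVT and 43221 to 43904 with DMSO. Bright probes weigh most in such sums, among the members with DMSO those of PARP1 and XRCC6. RRM2, the ribonucleotide reductase subunit, was at least 11.9-fold lower with SMIP004 (adjusted p 0.0164) and at least 12.9-fold lower with CPT (0.0231, limma). MCM2 and GINS2, of the replicative helicase, changed with SMIP004 by -3.47 ± 0.594 (adjusted p 0.00151) and -3.37 ± 0.639 (0.00253), and CDC45 and MCM3, of the same helicase, with CPT by -2.98 ± 0.887 (0.0189) and -2.96 ± 0.574 (0.00267, limma). E2F1 was detected on no array. The part of these changes in the fall of the repair genes was not tested.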

How the data were processed

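RNA from 10 samples of LNCaP-S14 cells was analysed on 12 arrays, grouped by the sample labels. The authors deposited 1 intensity per probe and array from the BeadStation software, not normalized, with a detection p-value, and quantile-normalized log2 values. The detection p-value was taken here as set against the negative controls of each array. The authors' thresholds of 2-fold and a p of 0.05 were an alternative. The neqc function (limma 3.58.1, R 4.3.3) corrected background from the detection p-values, added an offset of 16 and quantile-normalized. Of 24526 probes 21834 were assigned to 1 gene, and 99.9% of identifiers matched the gene table of GRCh38.p14. A probe was kept (11111 were) if all arrays of some group detected it at 0.01, and the brightest kept probe by mean level represented its gene. Quantile normalization assumes a like distribution on each array, so a shift of most genes would not be seen.

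After averaging technical arrays, all samples entered 1 limma model of group means (lmFit and eBayes, 5 residual and 2.95 prior degrees of freedom). Benjamini-Hochberg values were computed over all 8783 genes, separately for each of 7 comparisons. Slide could not be a term, since each group lay on 1 slide. The number of arrays limits the precision. The model was also run on simulated data with 1 spread per gene in all groups, so that run does not cover the wider spread of the RVT samples. Members and lists were chosen with earlier results of these data known. Values in every sample are given for up to 3 members per pathway of largest change with SMIP004, the 3 largest rises and falls with each other compound, members called in opposite directions, and, added after their values were seen, EXO1, TOP1 and members whose probes parted. For other repair and S phase genes the 3 of largest change with SMIP004 and CPT are named. Promoters were searched letter by letter. Alternatives changed the normalization, filter, technical arrays, samples fitted, variance moderation, probe, threshold and replicate block, and left out each sample in turn. Figures were drawn with matplotlib 3.10.9 in Python 3.11.15. No protein data were used here.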

Additional observations from a re-analysis of the deposited data

How the results depend on the processing

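Of 1374 values of called members under other settings, 1286 kept direction and call, 81 kept direction only and 7 reversed, and of 1200 values with a sample left out, 1005 kept both, 195 kept direction only and 0 reversed. The 7 reversals lie on the choice of probe: PMS2 with CPT changed by 0.12 on the mean of its probes and 0.85 on the dimmer one, RAD51C with CPT by -0.16 and -0.997, RAD51C between SMIP004 and CPT by 0.090 and 1.08, and RAD51C between CPT and BTZ by -0.11 on the dimmer probe. With arrays scaled to 1 median, 1 member rose with CPT. Asking for detection on all 12 arrays leaves 18 members by construction, of which 1 rose and 7 fell with SMIP004, 2 rose and 11 fell with BTZ, 13 fell with CPT, 0 rose and 0 fell with RVT, 4 were higher and 2 lower with SMIP004 than CPT, 4 higher with SMIP004 than BTZ, and 4 higher and 3 lower with CPT than BTZ. Of the 6041 genes so tested, 1821 rose and 1846 fell with SMIP004, 2081 rose and 1933 fell with BTZ, and 1901 fell with CPT. With RVT 309 rose and 301 fell. For SMIP004 against CPT 1987 were higher and 1900 lower, for SMIP004 against BTZ 1467 higher, and for CPT against BTZ 1802 higher and 2125 lower. With technical arrays as a random block 2 members and 516 of 8783 genes fell with RVT. Both without the RVT group and with only the compared groups fitted, 8 rose with BTZ, and 21 were higher and 9 lower with SMIP004 than CPT. Likewise 17 were higher and 10 lower with SMIP004 than BTZ, and 16 higher and 15 lower with CPT than BTZ. Of all genes without the RVT group, 38.5% rose with BTZ, and 39.1% were higher and 40.9% lower with SMIP004 than CPT. The shares were 34.4% and 35.4% for SMIP004 against BTZ, and 39.8% and 39.7% for CPT against BTZ. With only the compared groups these were 3324, 3488 and 3635, 3125 and 3232, and 3400 and 3368 of 8783 genes. In those fits 25 members and 3528 genes fell with SMIP004, and 0 of either rose or fell with RVT (limma). At 2-fold and an unadjusted p of 0.05, 1 rose with SMIP004, 2 rose with BTZ, 0 rose with CPT, 7 fell with RVT, 3 were lower with SMIP004 than CPT, 5 higher with SMIP004 than BTZ, and 4 higher with CPT than BTZ. Of all 8783 genes, 1367 rose with SMIP004, 1530 with BTZ and 1498 with CPT, and 319 fell with RVT. There 1701 were lower with SMIP004 than CPT, 1094 higher with SMIP004 than BTZ, and 1807 higher with CPT than BTZ.

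With a sample left out, members that fell ranged from 7 (without DMSO sample 1 or SMIP004 sample 1) to 23 (without an RVT sample) with SMIP004, from 17 to 27 with BTZ, from 15 (without DMSO sample 1 or CPT sample 2) to 27 with CPT and from 0 to 25 with RVT. Members that rose ranged from 3 to 4 with SMIP004, 4 to 8 with BTZ, 1 (without DMSO sample 2 or CPT sample 2) to 3 with CPT and 0 to 3 with RVT. Higher and lower members ranged from 7 to 21 and 4 to 9 for SMIP004 against CPT, 3 to 17 and 3 to 10 for SMIP004 against BTZ, and 6 to 16 and 7 to 15 for CPT against BTZ, with the highest counts without an RVT sample. The number of all tested genes called also changed with the sample left out, so these ranges do not describe the members alone. Replicate numbers only name the samples, and deviations of same-numbered samples correlated between -0.19 and 0.09. With the replicate block 4 members rose and 15 fell with SMIP004, 5 rose and 24 fell with BTZ, 3 rose and 23 fell with CPT, and 1 rose and 0 fell with RVT. Of all 8783 genes 2487 rose and 2556 fell with SMIP004, 2749 and 2824 with BTZ, 2725 and 2720 with CPT, and 129 and 203 with RVT.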
